A study of Bos taurus with 42 samples.

Results

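Cloned bovine blastocysts were set against cloned morulae, the stage before them, across every small non-coding RNA (sncRNA) of the deposited table. The groups were taken from the sample labels alone and hold 7 of the 42 libraries of the series. NT blastocysts, collected on day 8, gave 4 libraries (replicates 1 to 4). NT morulae, collected on day 6, gave 3 (replicates 2 to 4). NT stands for somatic cell nuclear transfer, in which a fibroblast is fused with an oocyte whose own chromosomes have been taken out. Both groups share the same making: ear fibroblasts of a Brahma × Spanish cross bull at passages 4 to 5, starved of serum before transfer, matured oocytes as recipients, and cumulus cells kept for the embryo culture. Each library was made from RNA shorter than 200 nt of a pool of 20 embryos, so it averages over embryos and over cell types, and fewer cells of a type cannot be told apart from less RNA per cell. The labels speak of 4 pools per stage in one place and of 3 in another, and nothing says which pools came from separate culture sessions, so p-values measure the spread between these libraries.

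At this transition the embryo leaves the stage of like cells and forms an outer trophectoderm, an inner cell mass and a fluid-filled cavity. MicroRNAs (miRNAs) are loaded into Argonaute proteins and lower the output of messenger RNAs that match their seed. PIWI-interacting RNAs (piRNAs) come from long clusters and silence transposons in germ cells, and bovine oocytes carry a large supply of them. Fragments of tRNAs arise when a mature tRNA is cut or when the ends of a tRNA precursor are removed.

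The table lists 12345 entries, each named by its annotation. All 12345 were found in 1 library of another stage (NT 2-cell replicate 4), so RNAs that appear in blastocysts and were not found there are not listed. Of the entries, 9474 belong to piRNA clusters, 907 are tRNA-derived and 619 are bovine miRNAs. The same miRNA can have an entry with an arm in its name (miR-205-5p) and one without (miR-205), which are given apart. Reads behind the listed entries numbered 296591 to 773476 in blastocysts and 341025 to 808647 in morulae. The blastocyst libraries found 2314 to 4714 entries and the morula libraries 4842 to 6351. NT morula replicate 3 lay nearer to the blastocysts than the other morulae did. Its mean correlation with the blastocysts was 0.794, against 0.674 and 0.699 for morulae 2 and 4. With the NT morulae its mean correlation was 0.825, against 0.832 and 0.843 for morulae 2 and 4. Levels are given as normalised reads, the reads of an entry divided by the size factor of its library in the deposited table, and changes as NT blastocyst minus NT morula on the deposited log2 scale, which understates changes of low entries.

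The first question was how the make-up of the small RNA pool changed. piRNAs made up 21.5% ± 7.76 of the listed signal in NT blastocysts (SD, n = 4), against 63.0% ± 13.9 in NT morulae (n = 3). By library the piRNA share was 14.3%, 30.6%, 25.2% and 15.8% in blastocysts 1 to 4, against 73.1%, 47.2% and 68.8% in morulae 2 to 4. The groups do not overlap, and morula 3 lies nearest to the blastocysts. miRNAs went the other way in share, at 15.7% ± 3.96 in blastocysts and 5.46% ± 0.385 in morulae. The miRNA share was 13.2%, 11.7%, 20.2% and 17.8% in the blastocysts, against 5.69%, 5.01% and 5.67% in the morulae. Every blastocyst library was above every morula library. For each of these 2 classes the exact two-sided permutation p was 0.0286, the smallest that 35 splits allow, and the adjusted p over 9 classes was 0.103.

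tRNA-derived RNAs made up 44.3% ± 7.21 in blastocysts and 22.7% ± 13.1 in morulae. Their share was 53.7%, 36.6%, 41.6% and 45.4% in the blastocysts, against 14.01%, 37.8% and 16.3% in the morulae. Morula 3 lay within the blastocyst range (exact permutation p = 0.0571, adjusted p = 0.103). rRNA fragments made up 8.52% ± 3.2 against 3.00% ± 0.672, small nucleolar RNAs 0.838% ± 0.306 against 0.179% ± 0.122, and small nuclear RNAs, the RNA parts of the spliceosome, 2.53% ± 1.68 against 0.530% ± 0.311 (blastocysts first in each, n = 4 and n = 3). rRNA and small nucleolar RNA shares do not overlap between the groups, and those of small nuclear RNAs do. No class passed adjustment over the 9 classes.

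**Figure D1:**
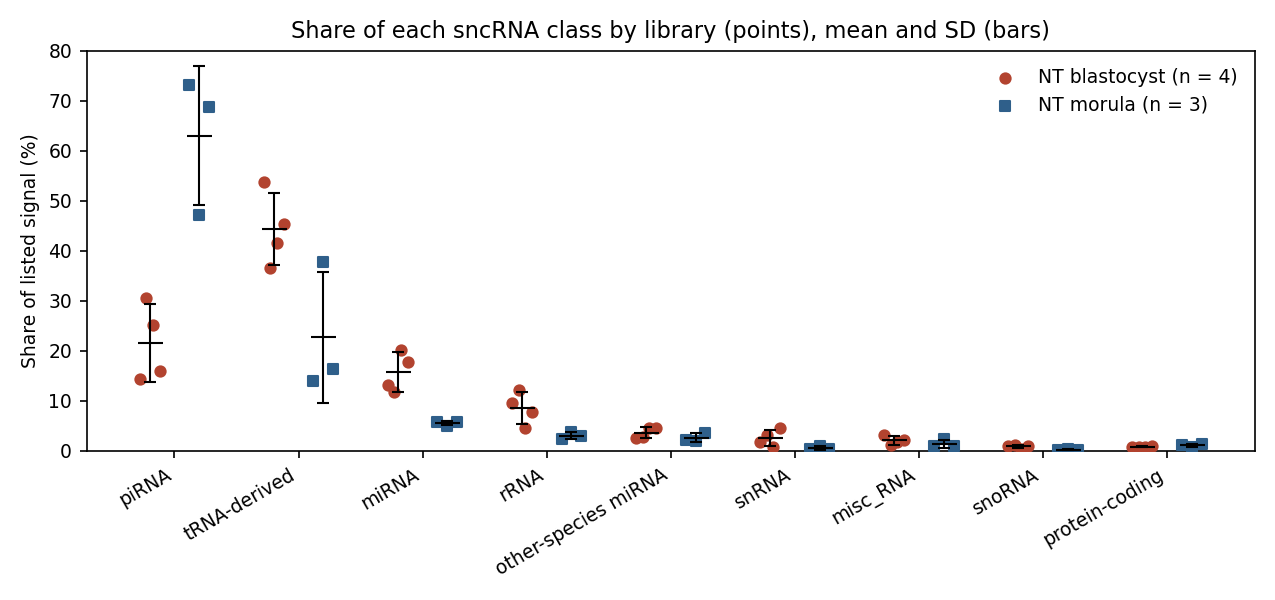
Share of the listed signal (%) of 9 sncRNA classes. Each point is 1 library, NT blastocysts (n = 4) left of NT morulae (n = 3), with the mean and SD as bars. The piRNA points are at 14.3% to 30.6% in blastocysts and 47.2% to 73.1% in morulae, and the miRNA points at 11.7% to 20.2% and 5.01% to 5.69%.

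Shares of one whole are bound to each other, so sums of normalised reads were compared as well. Such sums rest in turn on the size factors of the deposited table. The piRNA sum was 49812 ± 22489 in blastocysts and 399631 ± 106411 in morulae, which is 8.02-fold lower in blastocysts. The miRNA sum was 36360 ± 9260 in blastocysts and 34237 ± 4109 in morulae, a ratio of 1.06 with overlapping libraries (0.993 without morula 3). The tRNA-derived sum had a ratio of 0.745, also with overlap, and this became 1.07 without morula 3. Entries annotated to protein-coding transcripts summed to 1612 ± 102 in blastocysts and 6486 ± 2071 in morulae, without overlap. Their share of the listed signal did overlap, at 0.805% ± 0.149 and 1.08% ± 0.288 (exact permutation p = 0.171, adjusted p = 0.22).

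Entry by entry, limma tested 4250 entries and called 2636 at an adjusted p under 0.05 (Benjamini-Hochberg), 62.0% of those tested. Of them 97 rose in blastocysts (2.28%) and 2539 fell (59.7%). The median change over all tested entries was -1.51. Among piRNAs 0 entries rose and 2024 of 2664 fell, with a median change of -1.76. The filter asks for 3 libraries above a low level, so entries found only in the 3 morulae are tested and can only fall. The count of falls thus describes the tested entries. Without 1 morula 1843 to 1963 piRNAs were tested, and without 1 blastocyst 2481 to 2623. Among 404 tested miRNAs 37 rose and 101 fell, with a median change of -0.22. Among tRNA-derived RNAs 30 rose, 174 fell and 300 did not pass the test (median -0.47). Small nuclear RNAs had 11 that rose and 13 that fell of 81 (median 0.76), and small nucleolar RNAs 4 and 1 of 49 (median 0.43). Under the 4 scalings to all entries described next, 31 to 51 small nuclear RNAs were higher and 1 to 3 lower, and 15 to 28 small nucleolar RNAs were higher and 0 lower. Without morula 3, 14 small nucleolar RNAs rose.

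**Figure D2:**
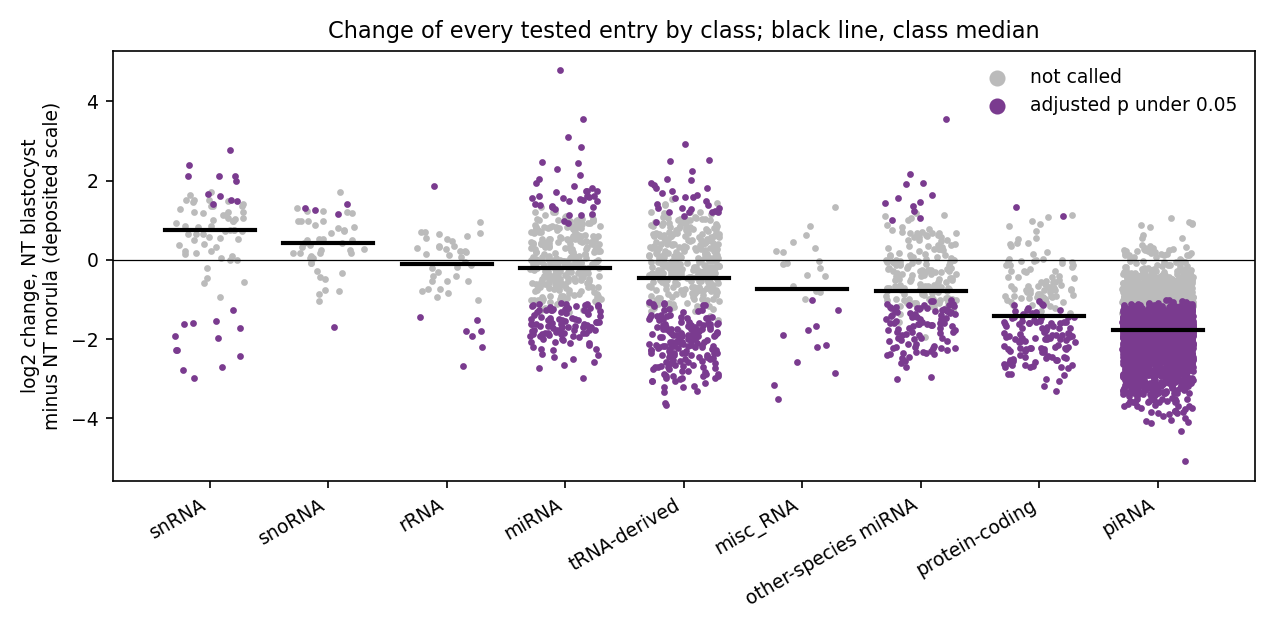
log2 change of every tested entry (NT blastocyst minus NT morula, deposited scale), 1 point per entry, grouped by class. Purple points passed an adjusted p under 0.05, and black lines are class medians, from 0.76 in small nuclear RNAs to -1.76 in piRNAs.

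The direction of the calls rests on how libraries are brought to a common scale. With libraries centred on their medians, which moves the median change of all entries to -0.20, 790 entries were called and 453 of them were higher. Quantile normalisation gave 482 higher and 287 lower with a median of -0.10, scaling to the listed reads of each library (CPM) 319 and 955, and voom 426 and 554. For miRNAs the scalings by median centring, quantiles, CPM and voom, in that order, gave 156, 168, 129 and 153 higher and 2, 2, 9 and 6 lower. For tRNA-derived RNAs they gave 30, 25, 70 and 39 lower, and 81.6%, 85.9%, 59.8% and 78.9% of the calls were higher, against 14.7% on the deposited scale. piRNAs stayed mostly lower, with 18, 12, 3 and 8 higher and 289, 245, 820 and 481 lower. When only miRNAs were used and scaled to the miRNA reads of each library, 49 were higher and 115 lower. The scalings by median centring, quantiles, CPM and voom moved the median change of miRNAs from -0.22 to 1.1, 0.94, 0.88 and 1.34. They moved that of tRNA-derived RNAs from -0.47 to 0.85, 0.77, 0.64 and 1.09. A rise on the deposited scale was thus likely to keep its call under them, and a fall to lose it. Of the 37 miRNAs that rose, 35 were called higher under all 6 scalings. Of the 101 that fell, 0 were called lower under all 6, 100 were called lower within the miRNA reads, and 75 to 94 had a change below 0 under the 4 scalings to all entries, with 0 called in the opposite direction. The falls of miRNAs given below are falls on the deposited scale and within miRNA reads. The counts also rest on single morula libraries. Without morula 4, 1285 piRNAs and 63 miRNAs fell, and 19 tRNA-derived RNAs rose. Without morula 2, 1327 piRNAs and 64 miRNAs fell. Without morula 3 the entries that rose numbered 163, with 45 tRNA-derived RNAs and 40 miRNAs among them.

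**Figure D3:**
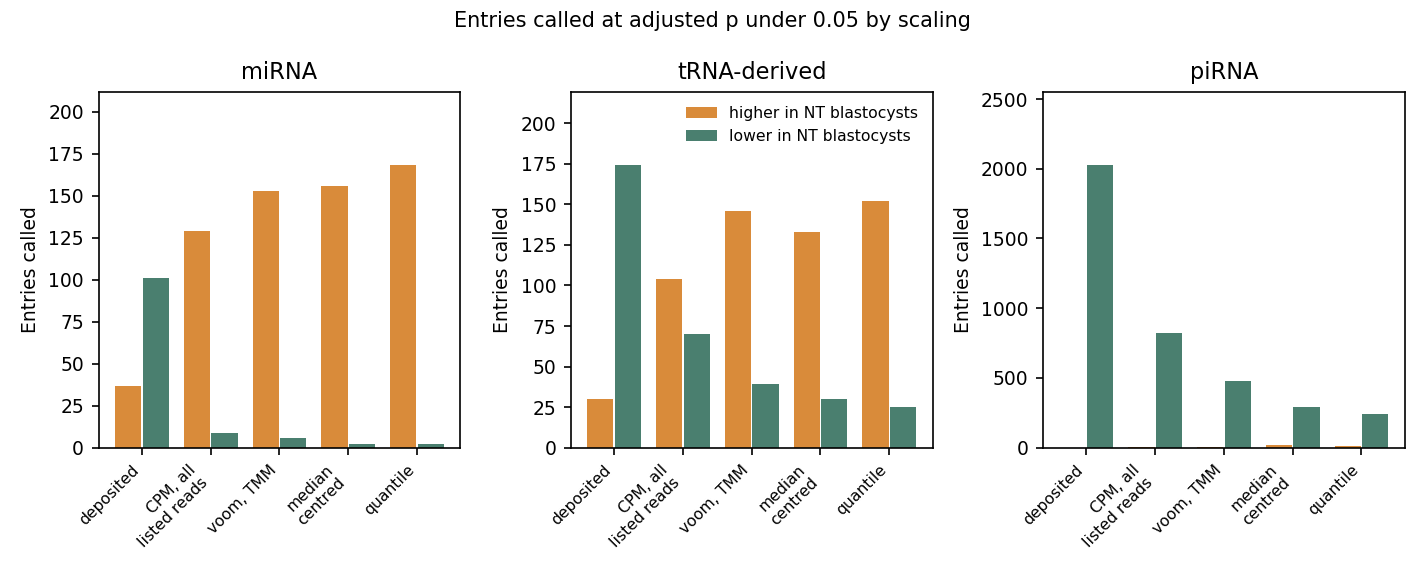
Number of miRNA, tRNA-derived and piRNA entries called higher (orange) or lower (green) in NT blastocysts than in NT morulae at an adjusted p under 0.05, by scaling. miRNA calls are 37 higher and 101 lower on the deposited scale and 129 to 168 higher and 2 to 9 lower under the 4 others shown.

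The largest rises among miRNAs were in the DLK1-DIO3 cluster. This imprinted region, described in mice, sheep and humans, holds a long array of miRNAs that are expressed from the chromosome inherited from the mother. miR-376c-3p had 132, 65.2, 132.6 and 177 normalised reads in NT blastocysts 1 to 4, against 0, 0 and 9.20 in NT morulae 2 to 4. All blastocysts are above all morulae, and 2 of the morulae had none (log2 change 4.78 ± 0.62 SE, limma adjusted p = 0.00131). miR-376e had 55.9, 27.7, 51.3 and 80.7 in blastocysts, against 0, 2.94 and 1.84 in morulae (3.54 ± 0.51, limma adjusted p = 0.00131).

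A pair of members were at 0 in all 3 morulae. miR-411c-5p had 15.0, 11.2, 13.0 and 37.7 normalised reads in blastocysts and 0 in all 3 morulae, which is at least 5.38-fold higher against a floor of 3 reads per library. miR-409a-3p had 10.0, 7.90, 23.7 and 18.3 in blastocysts and 0 in the morulae, at least 4.19-fold higher (limma adjusted p = 0.00131 for both). The next 2 members were found in some morulae. miR-376d had 15.8, 6.59, 23.1 and 18.8 in blastocysts, against 0, 0 and 2.76 in morulae. miR-376b-3p had 19.2, 8.89, 31.03 and 51.2 in blastocysts, against 0, 2.21 and 4.60 in morulae. Both rose, by 2.46 ± 0.54 (limma adjusted p = 0.00268) and 2.43 ± 0.60 (0.00472) on the log2 scale.

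Of the 19 entries of the DLK1-DIO3 list, 13 passed the filter on low values, 7 rose, 1 fell and 5 did not pass the test, where 2.28% of all tested entries rose. Their median change was 1.13 (also with the 2 entries at 0 in all morulae set to their bound), against -1.51 over all entries. The median was 2.22 without morula 3 (6 of 11 tested rose) and 2.4 within miRNA reads (6 rose). The filter lets in entries that are high in blastocysts only, so the count describes the tested members. The seventh to rise was miR-543-3p, with 1.67, 2.31, 3.38 and 6.48 normalised reads in blastocysts, against 0, 0 and 1.84 in morulae. It lost its call without blastocyst 3 or 4 or morula 2 or 3 (limma adjusted p = 0.0616 to 0.202). miR-494-3p fell, at 1.67, 0.988, 2.26 and 0 in blastocysts, against 19.2, 15.5 and 2.76 in morulae, and lost its call without blastocyst 4 (adjusted p = 0.0549 by limma) or morula 2 (0.0635). miR-380-3p did not pass, with 13.5 to 36.7 in blastocysts and 13.8 to 34.5 in morulae. The whole list summed to 301.6 ± 117 normalised reads in blastocysts and 59.3 ± 9.64 in morulae, 5.09-fold higher, with a lowest blastocyst of 154.5 and a highest morula of 67.7. Under the other 4 scalings to all entries 7 to 10 members were higher and 0 lower, where 129 to 168 of 404 tested miRNAs were higher.

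The genes of the entries that rose are spread over part of the cluster. RefSeq's annotation of assembly ARS-UCD2.0 places 59 miRNA genes between DLK1 and DIO3. MIR376E, MIR376C, MIR376D and MIR376B are the 25th, 26th, 27th and 29th of these in order, MIR543 is the 22nd, MIR411C the 38th and MIR409A the 52nd. MIR495, the 23rd, lies among them and its entries did not pass. MIR494, whose miR-494-3p fell, is the 20th. Reads of the miR-376 entries, which are near copies of each other, may be shared among them.

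The most abundant of these entries, miR-376c-3p, was also followed through the other groups. It ranged from 0 to 9.75 normalised reads in NT 8-cell embryos (median 7.41, n = 4) and from 11.1 to 38.3 in NT 2-cell embryos (n = 4). It was at 0 to 38.7 in the fibroblasts (median 4.61, n = 3) and at 0.525 to 2.29 in NT blastocyst-derived cells (n = 3). NT blastocysts, at 65.2 to 177, were above every library of these groups. IVF blastocysts had 37.5 to 52.4 (n = 3), below every NT blastocyst and above every NT morula.

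Of 3 tested miR-34a entries 2 rose. miR-34a is a known target of p53 and restrains the cell cycle. miR-34a-5p had 163, 111, 340 and 264 normalised reads in blastocysts, against 47.9, 38.3 and 27.6 in morulae, a ratio of 5.79 without overlap (log2 change 2.29 ± 0.47, limma adjusted p = 0.00219). The entry named miR-34a had 174, 107, 434 and 376.2 in blastocysts, against 128, 58.1 and 53.3 in morulae, so blastocyst 2 lies below morula 2 (1.61 ± 0.55, limma adjusted p = 0.0223). It lost its call without blastocyst 3 (adjusted p = 0.0599 by limma) or 4 (0.0625). miR-34a-3p did not pass, at 1.98 to 3.95 in blastocysts and 0 to 2.21 in morulae (1.02, limma adjusted p = 0.0584). miR-449a, which shares the seed of miR-34a, fell, with 19.2, 18.1, 66.0 and 9.42 in blastocysts, against 130, 31.6 and 223.5 in morulae (-1.93 ± 0.68, limma adjusted p = 0.0254), and lost its call without blastocyst 2 (0.0633) or 4 (0.0703). Of 9 tested entries of the list of miR-34 and miR-449 2 rose and 1 fell, with a median of 0.46. Over all tested entries 2.28% rose, and over tested miRNAs 9.16%. miR-34c did not pass, at 1.32 to 22.6 in blastocysts and 3.68 to 6.44 in morulae. Under the 4 scalings to all entries 4 or 5 of the list were higher and 0 lower, where 129 to 168 of 404 tested miRNAs were higher.

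miR-30 miRNAs also rose. Members of this family are abundant in many epithelia. miR-30e-5p had 573, 594, 994 and 640 normalised reads in blastocysts, against 207, 170 and 120 in morulae, 4.23-fold higher without overlap (log2 change 2.04 ± 0.41, limma adjusted p = 0.00202). miR-30d had 733, 519, 535 and 363.3 in blastocysts, against 240, 213 and 251 in morulae (1.14 ± 0.40, limma adjusted p = 0.0246). miR-30a-5p had 167, 142.3, 202.5 and 131 in blastocysts, against 78.6, 71.4 and 57.9 in morulae, and miR-30c-5p had 84.2, 161, 173 and 55.9, against 46.0, 49.3 and 23.9. These 4 of 7 tested entries rose with no overlap between the groups, and 0 fell. Over all tested entries 2.28% rose, and over tested miRNAs 9.16%. miR-30e-5p kept its call without any single library. The other 3 each lost theirs without morula 4 (limma adjusted p = 0.0712 to 0.120), miR-30a-5p also without blastocyst 1 or 3 or morula 2, miR-30c-5p without blastocyst 2 or 3, and miR-30d without blastocyst 1 or morula 2 or 3 (0.0509 to 0.0863). miR-30d-5p, the same miRNA under its other name, did not pass, at 277 to 464 in blastocysts and 368 to 557 in morulae. The list summed to 2530 ± 563 in blastocysts and 1495 ± 220.7 in morulae. Under the other scalings to all entries 5 to 7 of the 7 were higher, where 129 to 168 of 404 tested miRNAs were higher.

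Further miRNAs rose outside these lists. miR-28-3p had 127, 108, 190 and 130 normalised reads in blastocysts, against 47.9, 19.9 and 19.3 in morulae, 4.78-fold higher (log2 change 2.15 ± 0.44, limma adjusted p = 0.00221). miR-125a, the entry without an arm, had 8.34, 2.96, 8.46 and 3.53 in blastocysts and 0 in all 3 morulae, at least 1.63-fold higher. Its more abundant form, miR-125a-5p, did not pass, at 65.9 to 102 in blastocysts and 55.2 to 91.97 in morulae. miR-374b, which lies on the X chromosome in humans, had 60.9, 64.9, 147 and 65.9 in blastocysts, against 21.1, 28.0 and 11.0 in morulae (1.82 ± 0.47, limma adjusted p = 0.00577). The entry of miR-378-3p, from an intron of a metabolic coactivator gene in mice and humans, had 305, 275, 431.6 and 319 in blastocysts, against 171, 95.7 and 118 in morulae (1.36 ± 0.40, limma adjusted p = 0.0109). The most abundant miR-378 entry did not pass on the deposited scale, at 1651, 1688, 2873 and 1603 in blastocysts, against 1389, 642 and 1454 in morulae (0.79 ± 0.45, limma adjusted p = 0.14). Its blastocysts were all above its morulae.

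Among entries called higher under all 6 scalings were miR-26a, which represses the Polycomb gene EZH2 in mice, miR-196a, which lies in the HOX clusters, and miR-342. They were chosen for naming after their values were seen. miR-26a had 608, 684, 1370 and 503.4 normalised reads in blastocysts, against 389, 315 and 217 in morulae. miR-342 had 403, 696, 785 and 378.6 in blastocysts, against 262, 169 and 133.4 in morulae. miR-196a had 40.0, 28.7, 68.3 and 33.0 in blastocysts, against 13.4, 13.2 and 5.52 in morulae. In each of these 3 the lowest blastocyst is above the highest morula. miR-26a lost its call without blastocyst 3 (limma adjusted p = 0.0706) or morula 4 (0.114), and miR-196a without morula 4 (0.0561).

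**Figure D4:**
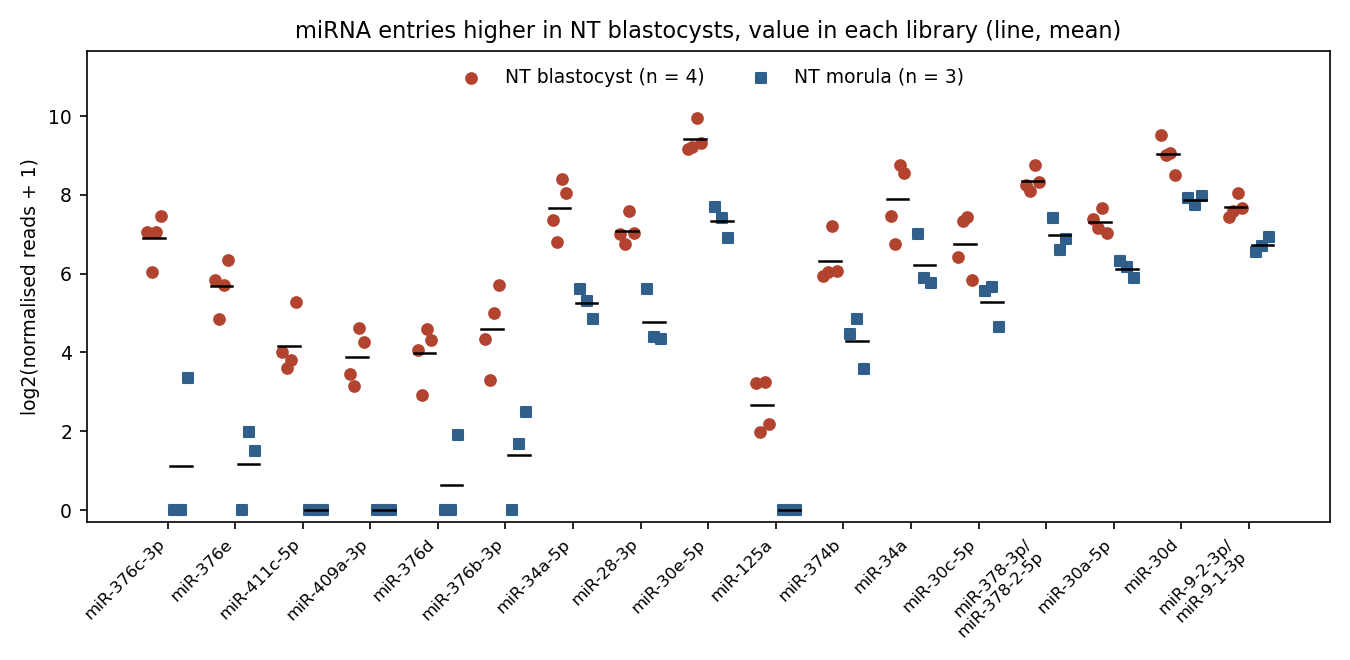
log2(normalised reads + 1) in each library for the 17 named miRNA entries that rose, NT blastocysts (red circles, n = 4) left of NT morulae (blue squares, n = 3), lines at the mean. miR-376c-3p is at 65.2 to 177 normalised reads in blastocysts and 0 to 9.20 in morulae. miR-30e-5p is at 573 to 994 and 120 to 207.

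The most abundant miRNAs changed less. miR-19b had 3360, 2999, 4327 and 3199 normalised reads in blastocysts, against 2864, 2156 and 3164 in morulae (log2 change 0.35 ± 0.40, limma adjusted p = 0.447). It belongs to the miR-17-92 clusters, which promote cell proliferation. Of 22 tested entries of miR-17-92 and its paralogs 0 rose and 4 fell on the deposited scale (median 0.34). Under the 4 scalings to all entries 14 to 16 were higher and 0 lower, where 129 to 168 of 404 tested miRNAs were higher. The 4 that fell were low entries: miR-106-5p (0 to 2.36 in blastocysts and 3.68 to 15.3 in morulae), miR-363-3p, miR-20b-5p and miR-18b. The last 3 each lost their call without morula 4 (limma adjusted p = 0.0999 to 0.175), miR-363-3p also without blastocyst 1 or 2, miR-20b-5p without blastocyst 1, 3 or 4 and miR-18b without blastocyst 4 (0.0512 to 0.0646). miR-20a came near the threshold, with 1936, 1572, 2887 and 1508 in blastocysts, against 709, 1166 and 1189 in morulae (0.94 ± 0.42, limma adjusted p = 0.071). miR-17-5p and miR-92a had adjusted p = 0.383 and 0.246 by limma. The list as a whole summed to 11421 ± 2717 in blastocysts and 8232 ± 1105 in morulae.

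miR-302a-3p/miR-302d-3p, the only entry without a mismatch of the pluripotency clusters miR-371 and miR-302, was present in all 7 libraries. It had 140.9, 195.3, 381.4 and 190 normalised reads in blastocysts, against 111, 149 and 70.8 in morulae, and blastocyst 1 lies below morula 3 (log2 change 0.97 ± 0.46, limma adjusted p = 0.0826). It was at 0 in every oocyte and NT 8-cell library. Without morula 3 it was called higher (1.21, limma adjusted p = 0.0351), as under the 5 other scalings.

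miR-21-5p, often raised in growing and stressed cells, had 2092, 782, 2641 and 1921 in blastocysts, against 3288, 3904 and 2612 in morulae (log2 change -0.92 ± 0.48, limma adjusted p = 0.112). Blastocyst 3 lies just above morula 4. With CPM, median centring and voom its change was above 0 and not called (0.39 to 0.91), while within miRNA reads it was called lower (limma adjusted p = 0.0189).

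The falls were led by miR-138. In the mouse brain miR-138 limits the size of dendritic spines. miR-138-2-5p had 14.2, 12.8, 16.9 and 14.7 normalised reads in blastocysts, against 197, 62.5 and 151.8 in morulae, 9.36-fold lower (log2 change -2.73 ± 0.46, limma adjusted p = 0.00139). miR-138-1-5p had 3.34, 0, 0 and 0 in blastocysts, against 30.7, 16.2 and 21.2 in morulae (-2.99 ± 0.52, limma adjusted p = 0.00149). The entry that names both, miR-138-1-5p/miR-138-2-5p, had 0, 0, 0 and 1.77 in blastocysts, against 19.2, 6.62 and 14.7 in morulae. The groups are apart in all 3. The first 2 were also called lower under 4 of 5 other scalings, and the entry naming both under 3. miR-138-2-5p stood at 629 to 1005 in oocytes (n = 3) and 275 to 1000 in NT 8-cell embryos (n = 4), and at 0 to 3.53 in fibroblasts (n = 3).

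miR-205, a marker of stratified epithelia, fell under both names. miR-205-5p had 56.7, 77.1, 75.03 and 60.1 normalised reads in blastocysts, against 293, 219 and 465 in morulae, 4.85-fold lower (log2 change -2.14 ± 0.41, limma adjusted p = 0.00184). The entry miR-205 had 5.84, 2.63, 3.38 and 2.36 in blastocysts, against 34.5, 22.8 and 34.9 in morulae. Both were called within the miRNA reads as well and under no other scaling. miR-205-5p was at 706 to 830 in oocytes, 269 to 997 in NT 8-cell embryos and 0 to 0.969 in fibroblasts.

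miR-122-5p, the main miRNA of the liver, had 19.2, 36.9, 40.1 and 21.8 normalised reads in blastocysts, against 153, 197 and 166 in morulae, 5.85-fold lower (log2 change -2.41 ± 0.41, limma adjusted p = 0.00145). miR-10b-5p, from a HOX cluster, had 24.2, 27.7, 42.9 and 17.1 in blastocysts, against 136.04, 137 and 161 in morulae (-2.24 ± 0.42, limma adjusted p = 0.00166). miR-497-5p, of the miR-15/16 seed family, had 4.17, 5.27, 9.03 and 4.12 in blastocysts, against 61.3, 28.0 and 46.9 in morulae (-2.29 ± 0.44, limma adjusted p = 0.00189). miR-105a had 0, 1.65, 2.82 and 0 in blastocysts, against 32.6, 9.57 and 17.5 in morulae. miR-507b-3p had 0, 2.96, 19.2 and 1.18, against 34.5, 22.1 and 61.6. The groups are apart in each of these 5 entries, and blastocyst 3 holds the highest blastocyst level in each.

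**Figure D5:**
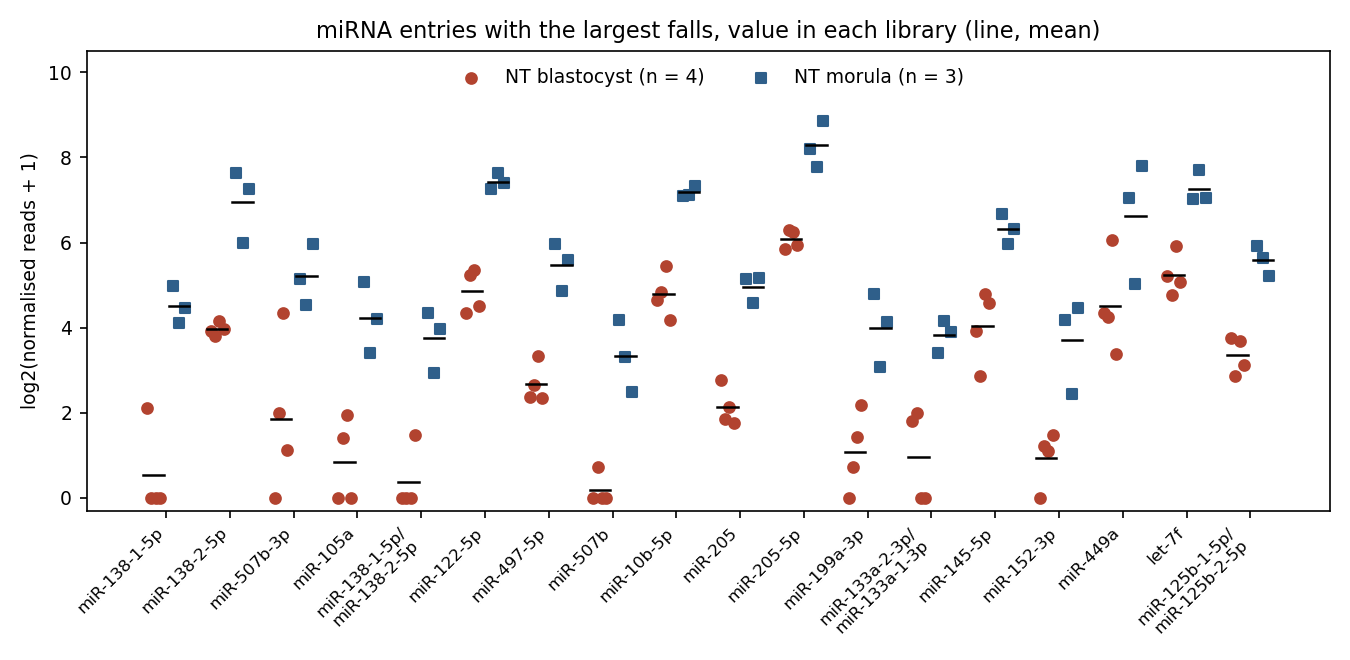
log2(normalised reads + 1) in each library for the 18 named miRNA entries with the largest falls on the deposited scale, NT blastocysts (red circles, n = 4) left of NT morulae (blue squares, n = 3), lines at the mean. miR-205-5p is at 56.7 to 77.1 normalised reads in blastocysts and 219 to 465 in morulae. Under the scalings to all entries most of these were not called.

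let-7 miRNAs promote differentiation and are held back by LIN28 in early embryonic cells. Of 15 tested let-7 entries (20 listed) 11 fell (73.3%, against 59.7% of all tested entries) and 0 rose, with a median change of -1.62, against -0.22 over all miRNAs. let-7f had 35.9, 26.02, 59.8 and 32.4 normalised reads in blastocysts, against 128, 209 and 132 in morulae (log2 change -1.91 ± 0.43, limma adjusted p = 0.00297). let-7a-5p had 70.0, 49.7, 100.4 and 37.7, against 161, 252 and 155 (-1.53 ± 0.44, limma adjusted p = 0.0101), and let-7g 22.5, 12.5, 27.6 and 17.1, against 86.2, 85.4 and 69.9. The list summed to 218 ± 96.8 in blastocysts and 757 ± 126 in morulae, without overlap. Scaled to miRNA reads 11 also fell, with a median of -1.99. Under the 4 scalings to all entries 0 were called in either direction, with medians of -0.50 to -0.12.

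In smaller families some members fell on the deposited scale, where 59.7% of all tested entries and 101 of 404 tested miRNAs fell. All 3 entries of the list of miR-148 and miR-152, which in humans target a DNA methyltransferase, fell: miR-148a-3p had 77.5, 116, 170 and 109 normalised reads in blastocysts, against 368, 200 and 332 in morulae (log2 change -1.31 ± 0.43, limma adjusted p = 0.018). It lost its call without blastocyst 1 or morula 2 or 4 (limma adjusted p = 0.0602 to 0.0888). The entry miR-148a lost its call without blastocyst 1, 2 or 4 or morula 2 (limma adjusted p = 0.0519 to 0.0726). Of 15 entries of miR-15/16, which restrain the cell cycle and survival, 6 fell (40.0%) and 0 rose. miR-15a had 90.9, 99.8, 205.9 and 77.7 in blastocysts, against 445, 275 and 483 in morulae (-1.78 ± 0.45, limma adjusted p = 0.00544), while miR-15b and miR-16b did not pass. Of 12 entries of miR-23/24/27 5 fell (41.7%), among them miR-23a with 58.4, 25.7, 43.4 and 31.2 in blastocysts, against 172, 116 and 79.1 in morulae. miR-23a lost its call without morula 2 (limma adjusted p = 0.0723). The others that fell, miR-23a-3p, miR-24-3p, miR-27a-3p and miR-27b-3p, each lost theirs without any 1 of several libraries (limma adjusted p = 0.0583 to 0.146). Of 12 entries of the list of miR-10, miR-99, miR-100 and miR-125 5 fell (41.7%) and 1 rose. In these 3 lists the share that fell was below that over all entries and above that over tested miRNAs. Scaled to miRNA reads the list of miR-148 and miR-152 and these 3 lists had 3, 9, 8 and 5 lower. Under median centring, quantile normalisation, CPM and voom 0 members of any of them were called lower, and medians of miR-15/16 and miR-23/24/27 were above 0 (0.29 to 0.82).

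Of 29 tested entries of the X-linked list, 1 rose and 4 fell on the deposited scale (median -0.42), against 7 to 10 higher and 0 lower under the scalings to all entries. The match by name also took the miR-106b entries into this list, and these did not pass.

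Marker lists of other cell types were compared, since donor fibroblasts made the embryos and cumulus cells were kept with them in culture. Of 22 fibroblast and mesenchymal entries 10 fell (45.5%) and 0 rose. The share that fell was below the 59.7% of all tested entries and above that of tested miRNAs (101 of 404). The fibroblast and mesenchymal list summed to 2280 ± 897 normalised reads in blastocysts (1041 to 3157) and 4347 ± 633 in morulae (3633 to 4837). Most of this was miR-21-5p, which did not pass. Without it the list summed to 259 to 520.3 in blastocysts and 934 to 1284 in morulae. miR-145-5p, a smooth muscle and stromal miRNA, had 14.2, 6.26, 26.5 and 22.96 in blastocysts, against 102, 61.1 and 79.1 in morulae (log2 change -2.03 ± 0.48, limma adjusted p = 0.00378). miR-199a-3p was at 0 to 3.53 in blastocysts and 7.36 to 26.8 in morulae. Of 3 cumulus and granulosa entries miR-132 fell (limma adjusted p = 0.0166, and 0.0501 without blastocyst 1), and the list summed to 9.55 to 30.8 in blastocysts and 32.6 to 114 in morulae. The highest cumulus sum was in morula 3.

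Blood and serum entries summed to 43.4 to 82.9 in blastocysts and 247 to 313 in morulae. Of 7 tested, 4 fell (57.1%, also above the share over tested miRNAs), among them miR-122-5p and miR-451. miR-451, of red blood cells, had 5.84, 2.63, 1.69 and 8.24 in blastocysts, against 24.9, 43.4 and 15.6 in morulae. Epithelial and trophectoderm entries summed to 124.2 to 214.4 in blastocysts and 301 to 630 in morulae. Without both miR-205 entries the sums overlap, at 58.0 to 135.96 in blastocysts and 58.9 to 195.4 in morulae. Of its 9 tested entries 3 fell (both miR-205 entries and miR-141, which lost its call without any 1 of blastocysts 1, 2 and 4 and morulae 2 and 4, limma adjusted p = 0.0538 to 0.156), and miR-200c, miR-182 and miR-141-3p did not pass. miR-200c had 12.5, 25.4, 45.7 and 17.1 in blastocysts, against 82.4, 18.4 and 33.1 in morulae, with overlap. Of 5 muscle and neural entries miR-9-3p rose and miR-133a-3p fell. miR-9-3p, a neural miRNA, had 172, 192, 265 and 201 in blastocysts, against 91.97, 103 and 121 in morulae, but lost its call without any 1 of the 7 libraries (limma adjusted p = 0.0498 with all, 0.0558 to 0.209 without 1). The part of other cells in the changes above was not tested. Under the 4 scalings to all entries 0 entries of these lists were called lower.

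Fragments of tRNAs were next split by how they are cut. Long 5′ fragments, which reach from the start of the mature tRNA to a cut in the anticodon loop, held 56.7% ± 1.31 of the tRNA-derived signal in blastocysts and 57.1% ± 10.6 in morulae (exact permutation p = 0.971). By library they held 57.7%, 54.8%, 56.8% and 57.5% in the blastocysts, against 49.5%, 69.2% and 52.7% in the morulae, where morula 3 stands apart. No fragment type changed its share beyond the adjusted threshold over the 8 types. The lowest unadjusted p was for leader fragments, at 0.0997% ± 0.043 in blastocysts and 0.511% ± 0.326 in morulae (exact permutation p = 0.0571, adjusted p = 0.457), with morula 3 at 0.138% inside the blastocyst range.

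Most tested entries cut from tRNA precursors fell. Of 135 tested tRF-1 entries, which are the trailers removed from the 3′ end of the precursor, 110 fell and 0 rose (median change -2.07). That is 81.5%, where 34.5% of tested tRNA-derived entries and 59.7% of all tested entries fell. The filter lets in entries found in morulae only, so counts of tRF-1 and leader falls describe the tested entries. Without morula 3, 85 of 101 tested tRF-1 entries fell. Of 11 leader entries, from the 5′ end, 10 fell and 0 rose (median -2.52), and their sum was 6.21-fold lower in blastocysts, at 87.0 ± 33.5 normalised reads, against 540.5 ± 238 in morulae. Both types were on balance lower under every scaling, with 20 to 52 tRF-1 entries lower and 5 to 7 higher under the 4 scalings to all entries, and 98 lower and 2 higher within tRNA-derived reads. The tRF-1 entry of precursor 2868 had 29.2, 36.6, 20.3 and 12.4 in blastocysts, against 330, 253 and 521 in morulae, 15.0-fold lower (log2 change -3.67 ± 0.46, limma adjusted p = 0.00131), and was called lower under all 6 scalings.

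The tRF-1 sum overlapped between the groups, at 11082 ± 4990 normalised reads in blastocysts and 11957 ± 3989 in morulae. Its most abundant entry was tRF-1 of precursor 4060. It had 15636, 7873, 5450 and 6008 in blastocysts, against 5798, 3038 and 5753 in morulae, and did not pass (log2 change 0.77 ± 0.49, limma adjusted p = 0.185). It made up 76.9% of the tRF-1 reads in blastocysts and 40.8% in morulae. The 110 entries that fell made up 6.80% in blastocysts and 47.8% in morulae. By library those 110 summed to 456, 952, 830 and 368.6 in blastocysts, against 6819, 3445 and 6932 in morulae. Since the 110 were picked for falling in these same libraries, their lower share and sum follow from the choice and add no support. The second most abundant tRF-1 entry, of precursor 3727, had 1584, 774, 764 and 871 in blastocysts, against 548, 306 and 636 in morulae (0.99 ± 0.44, limma adjusted p = 0.0682).

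Fragments of mature tRNAs were mixed on the deposited scale. Of 79 entries with the 3′ CCA end 12 rose and 2 fell (median 0.43), and of 55 long 5′ fragments 6 rose and 6 fell (median 0.10). Over tested tRNA-derived entries 5.95% rose and 34.5% fell, and over all tested entries 2.28% and 59.7%. Under the 4 scalings to all entries 37 to 54 entries with the 3′ CCA end and 19 to 26 long 5′ fragments were higher and 0 lower. Without morula 3, 9 rose and 5 fell with the 3′ CCA end, and 15 rose and 3 fell of the long 5′ fragments. The long 5′ fragment of cysteine tRNA (anticodon GCA) had 229, 168, 173 and 184 normalised reads in blastocysts, against 47.9, 40.5 and 53.3 in morulae (log2 change 1.89, limma adjusted p = 0.00208). The long 5′ fragment of glycine tRNA with anticodon TCC had 808, 768, 450 and 380, against 155, 190 and 90.1. Both were called higher under all 6 scalings and were chosen for naming after their values were seen. The most abundant long 5′ fragment, of glycine tRNAs, did not pass, with 14647, 13805, 8589 and 8356 in blastocysts, against 10651, 37459 and 13855 in morulae. Morula 3 is the highest of all 7 libraries there.

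Internal fragments split by tRNA. Of 19 tested internal entries with a cysteine tRNA among their names 16 fell and 0 rose, and of 20 with a glycine tRNA 11 fell and 1 rose, where 59.7% of all tested entries fell. Under the scalings to all entries the cysteine entries had 2 to 6 lower and 1 higher. Of these 19, 16 to 18 had a change below 0 (medians -2.32 to -0.40). The glycine entries had 1 to 6 lower and 1 to 3 higher. Of these 20, 11 or 12 had a change below 0 (medians -1.85 to -0.20). The cysteine entry with the largest fall had 0, 4.28, 1.13 and 0 normalised reads in blastocysts, against 63.2, 13.2 and 49.7 in morulae (log2 change -3.31 ± 0.61, limma adjusted p = 0.00163). Internal fragments of proline tRNA (anticodon TGG) went the other way, with 52.5, 63.2, 75.6 and 27.1 in blastocysts, against 9.58, 5.15 and 2.76 in morulae, 9.37-fold higher (2.52 ± 0.47, limma adjusted p = 0.00174). The proline entry with anticodon CGG had 37.5, 17.8, 34.4 and 27.7, against 0, 2.21 and 8.28. One internal entry of a tRNA gene annotated by Ensembl was at 16.7, 8.23, 13.5 and 22.96 in blastocysts and 0 in all 3 morulae, at least 4.30-fold higher. All 7 tested 5′ fragments with an aspartate tRNA among their names fell, 0 or 1 of them under the scalings to all entries. The most abundant internal entry, of glutamate tRNAs, did not pass the test, at 21407, 16438, 20244 and 10438 in blastocysts, against 8597, 33299 and 11373 in morulae.

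The piRNA signal was next split by cluster of origin. Coordinates are those of build UMD3.1/bosTau8, as the entry names carry them, and no gene annotation of that build was used here. The cluster at chr6:110178897-110333441 supplied 32.4% ± 1.14 of the piRNA signal in blastocysts and 33.4% ± 0.103 in morulae (exact permutation p = 0.314), and this difference of -0.943 points became 0.0477 when recovered reads replaced the signal. The cluster at chr17:62734087-62862016 supplied 16.4% ± 0.557 and 17.3% ± 0.201, that at chr23:13905000-14137856 15.9% ± 0.670 and 16.6% ± 0.0786, that at chr14:4892124-5053723 4.23% ± 0.479 and 5.00% ± 0.423, and that at chr3:90985343-91116627 2.93% ± 0.246 and 3.11% ± 0.175. Adjusted p-values over these 5 clusters were 0.214 to 0.343. In each of them 0 tested entries rose. Of 169 tested entries of the chromosome 6 cluster 146 fell (median -1.95), and of 170 of the chromosome 23 cluster 115 fell (median -1.61), where 76.0% of all tested piRNAs and 59.7% of all tested entries fell. These falls, too, are on the deposited scale.

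Within piRNA reads alone, 20 entries were called higher and 277 lower. The entries with the largest falls lie in smaller clusters as well. An entry of the cluster at chr10:80949230-80958786 had 12.5, 29.0, 12.4 and 2.36 normalised reads in blastocysts, against 575, 72.8 and 728 in morulae, 32.6-fold lower (log2 change -4.33 ± 0.76, limma adjusted p = 0.0015). An entry of the cluster at chr2:94494003-94503799 had 0, 10.9, 1.69 and 1.18, against 82.4, 103 and 101 (-4.11 ± 0.57, limma adjusted p = 0.00131). Morula 3 has the lowest level of the morulae in the first and the highest in the second. Only 13 of the 2024 piRNA entries that fell were called lower under all 6 scalings.

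Other structured RNAs were mixed. Mitochondrial rRNA fragments summed to 3222, 2978, 3536 and 2916 normalised reads in blastocysts, against 1182, 961 and 785 in morulae, 3.24-fold higher without overlap, and 1 of 3 entries rose. Of 14 tested miscellaneous RNA entries of Rfam family RF00100 11 fell and 0 rose (median -1.84), where 59.7% of all tested entries fell. Over all tested miscellaneous RNAs 39.3% fell. The RF00100 family summed to 114 ± 31.5 in blastocysts and 749 ± 297 in morulae. Under the scalings to all entries 3 to 5 of them were lower and 0 to 2 higher. Of 17 small nuclear RNA entries of family RF00020 6 rose and 2 fell (median 1.14), where 13.6% of tested small nuclear RNAs and 2.28% of all tested entries rose. The RF00020 entry with the largest rise had 29.2, 40.8, 10.2 and 61.8 in blastocysts, against 0, 16.2 and 0 in morulae, so blastocyst 3 lies below morula 3 (log2 change 2.77 ± 0.76, limma adjusted p = 0.008). Small nuclear RNAs as a class summed to 4555, 7960, 1601 and 8037 in blastocysts, and blastocyst 3 was the lowest. Without morula 3, 39 small nuclear RNA entries rose and 11 fell of 74 tested, and without 1 blastocyst 4 to 27 rose (27 without blastocyst 3).

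The same step was measured in embryos made by in vitro fertilisation (IVF), with 3 blastocyst and 4 morula libraries. In 1 model of both kinds of embryo the step in NT embryos minus the step in IVF embryos was tested for 5794 entries. limma called 0 higher and 1 lower (0.0173%), with 357 at an unadjusted p under 0.05. That entry is a piRNA of the chr23:13905000-14137856 cluster. It had 0, 11.9, 1.13 and 27.1 normalised reads in NT blastocysts, against 132, 322 and 644 in NT morulae, and 0, 75.01 and 353 in IVF blastocysts, against 0 in all 4 IVF morulae (difference of steps -9.11 ± 1.76, limma adjusted p = 0.0243). No entry was called under quantile normalisation, median centring or 1 model over all 12 groups, nor without any 1 of IVF blastocysts 3 and 4, IVF morulae 3 and 4, NT blastocysts 1 and 3 and NT morula 4. The IVF morulae were far apart: their piRNA share ran from 0.164% to 80.4% and their miRNA share from 3.21% to 63.9%.

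The DLK1-DIO3 list summed to 159, 140.6 and 101 normalised reads in IVF blastocysts, against 12.4, 62.7, 0 and 78.6 in IVF morulae, with no overlap. The 0 is that of IVF morula 3, which had only 25119 listed reads. For miR-376c-3p the NT step exceeded the IVF step by 1.62 ± 1.60 (limma adjusted p = 0.739). For miR-34a-5p the difference was 0.49 ± 2.10 (0.928), for miR-30e-5p -0.79 ± 2.02 (0.881), for miR-138-2-5p -2.46 ± 1.89 (0.683) and for miR-205-5p -3.33 ± 2.08 (0.664), all adjusted by limma. With standard errors of 1.60 to 2.10 log2 units, a p that misses the threshold does not show that the steps were alike.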

How the data were processed

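Small RNAs of 42 libraries were sequenced on Ion Proton with the Ion Total RNA-seq kit v2, per the labels' protocols. The authors used Trim Galore, DESeq2 and genome build bosTau8/UMD3.1, per the submitters' processing notes, which give no versions. The authors deposited 1 table of variance-stabilised log2 values, scaled by size factors, in which the lowest value stands for 0 reads. Inverting that transformation gave whole reads for 100% of 188126 values above the lowest (tolerance 0.01). The smallest value of each library was taken as 2 reads, so absolute read numbers rest on that choice. Values after ± are SDs between libraries or, for log2 changes, limma standard errors. Floors cover counting error only, and reads are not independent molecules.

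The deposited log2 values of 4 NT blastocyst and 3 NT morula libraries were fitted with limma 3.58.1 in R 4.3.3 (2 groups, intensity trend, residual df 5, median prior df 7.21). An entry was tested where 3 or more libraries exceeded the lowest value by 1 log2 unit or more, which held for 4250 of 12345, with a Benjamini-Hochberg threshold of 0.05 over all of them. Shares are of the signal, each deposited value raised from the log2 scale and reduced by that of 0 reads, compared by two-sided exact permutation over 35 splits. The fold given as "at least" uses a floor of 3 reads per library. The scripts ran in Python 3.11.15 and were tested on simulated data. Named are the entries with the largest changes per class and direction, the called members of each list with the largest changes, and the most abundant miRNAs. The members, lists and naming rule were chosen with earlier results of these data known. Alternatives were other scalings, filters, transformations, tests, a replicate block and leaving out each library. The scalings within tRNA-derived and piRNA reads, and within miRNA reads without morula 3, were chosen after seeing the data. No sequence was printed, since none is in the tables used here.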

Additional observations from a re-analysis of the deposited data

Results flagged for a closer look

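In NT blastocysts, 6 of 105 groups of 4 libraries tested held 1 library far from the other 3, and chance gives about 1 in 20. miR-138-1-5p had 3.34 normalised reads in blastocyst 1 and 0 in the others. The entry miR-138-1-5p/miR-138-2-5p had 1.77 in blastocyst 4 and 0 in the others. miR-507b had 0.659 and miR-20b-5p 2.63 in blastocyst 2, each with 0 in the others. These 4 values are a few reads. With the other 3 libraries at 0, any value above 0 is flagged, so the rate of 1 in 20 does not apply to these 4. miR-374b had 147 in blastocyst 3, against 60.9 to 65.9 in the other blastocysts, and miR-378 had 2873 there, against 1603 to 1688.

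The piRNA entry of the chromosome 23 cluster that was called in the test of the NT step minus the IVF step had a difference of steps of -9.11 ± 1.76 (limma adjusted p = 0.0243). Its IVF step alone did not pass (4.02, limma adjusted p = 0.836). It was at 0 in all 4 IVF morulae and in 1 of 3 IVF blastocysts. In IVF morula 3, with 25119 listed reads, and IVF morula 1, with few piRNA reads, a 0 says little.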

How the results depend on the processing

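Calls over all entries (2636; 97 higher, 2539 lower) were 1548 (25, 1523) with 1 model over all 12 groups, 1274 (319, 955) with CPM, 876 (810 lower) with the stricter filter, 790 (453 higher) with median centring, 769 (482, 287) with quantile normalisation and 980 (426, 554) with voom. miRNAs higher and lower were 8 and 17 with 12 groups, 129 and 9 with CPM, 156 and 2 with centring, 168 and 2 with quantile, 153 and 6 with voom, and 55 lower with the stricter filter. tRNA-derived RNAs (174 lower, 14.7% of their calls higher) had 112 lower and 8.2% of calls higher with 12 groups, 70 and 59.8% with CPM, 30 and 81.6% with centring, 25 and 85.9% with quantile, 39 and 78.9% with voom, and 70 lower with the stricter filter. piRNAs lower were 1279 with 12 groups, 820 with CPM, 289 with centring, 245 with quantile, 481 with voom, 578 with the stricter filter and 277 within piRNA reads. The NT minus IVF step had 0 calls with 12 groups, centring and quantile.

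Leaving out 1 library gave 1678 to 2571 calls, 67 to 163 higher. The entries tested numbered 3249 to 3417 without 1 morula and 4004 to 4177 without 1 blastocyst. miRNAs lower were 63 to 105, tRNA-derived RNAs lower 123 to 167 with 12.1% to 23.2% of their calls higher, piRNAs lower 1285 to 2004, and the NT minus IVF step 0 to 1. Differences of fragment type shares ranged from -0.293 to 1.21 points for 3′ CCA, -0.0303 to 0.000314 for 3′ tRF, -4.23 to 5.64 for long 5′ fragments and -4.4 to 1.7 for tRF-1. The chromosome 6 cluster was 0.0477 with recovered reads.

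Same-numbered libraries did not deviate together (correlations 0.05, -0.24 and -0.1 for numbers 2, 3 and 4). With the replicate block 2262 entries were called (70 higher, 2192 lower), 25 miRNAs higher and 67 lower.

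Changes of named miRNAs turned positive with median centring for miR-497 (0.06), miR-27a-3p (0.03), miR-23a-3p (0.04), miR-24-3p (0.13), miR-148a-3p (0.0), miR-132 (0.04) and miR-21-5p (0.39). With quantile normalisation they did for miR-497 (0.15), miR-23a-3p (0.25), miR-24-3p (0.36), miR-132 (0.14) and miR-451-5p (0.06). With CPM they did for miR-27a-3p (0.1), miR-148a-3p (0.09) and miR-21-5p (0.52). With voom they did for miR-15a (0.02), miR-23a (0.21), miR-27a-3p (0.47), miR-23a-3p (0.03), miR-24-3p (0.26), miR-148a-3p (0.51), miR-21-5p (0.91) and let-7a-5p (0.22). Over 83 named entries and all alternatives, 1351 of 1696 values kept direction and side of the threshold, 286 lost the call, 36 gained one and 23 reversed. The cause was not tested. Depth of 296591 to 808647 listed reads in the NT morula and blastocyst libraries, and of 25119 to 790043 in the IVF ones, limits low entries.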
